A study of Rattus norvegicus with 20 samples.

Results

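Celecoxib at the reference concentration of 1 was left on primary heart cell cultures for 6 h or for 24 h, and the RNA of both times was compared. The comparison rests on 6 of the 20 arrays of the series, 3 at 6 h and 3 at 24 h, chosen by their labelled concentration and time. The cells were cardiomyocyte cultures from the hearts of neonatal rats, grown for 1 day in DMEM before treatment. Celecoxib inhibits cyclo-oxygenase 2. The labels give concentrations only as 1, 1/5 and 1/25 of a reference, with no absolute value. The other arrays are 3 for each of 6 h and 24 h at 1/5 and at 1/25, and 2 of untreated cells. The untreated arrays carry no time and no vehicle, so at each time the length of celecoxib exposure and the age of the culture cannot be told apart. Nothing in the labels ties a replicate to a culture or animal of its own. The p-values therefore measure only how far these samples lie apart, against a spread within groups estimated over all 20 arrays. That spread may be technical.

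Cyclo-oxygenases turn arachidonic acid into prostaglandin H2, which separate synthases convert into prostaglandins, prostacyclin and thromboxane. Cyclo-oxygenase 1 (Ptgs1) is made steadily by most cells, while cyclo-oxygenase 2 (Ptgs2) is an inducible enzyme whose RNA rises quickly after stress or cytokines and then decays. Cultures of neonatal heart also hold fibroblasts, endothelial cells and macrophages, and unlike adult cardiomyocytes some of their cells still divide. In RNA from such a mixture, fewer cells of a type and less RNA per cell cannot be told apart.

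Between 67.4% and 78.3% of the 41012 probes gave signal well above background on the 6 arrays, and 6.31% to 7.94% of the probes were saturated. Depth on an array is this signal over background, and the number of arrays limits the precision. Levels are given on the log2 scale relative to the 75th percentile of the array, so that a level of 0 is the 75th percentile itself. Arrays are numbered by their labelled replicate. Array 3 of 6 h was scanned on another day than the other 5 arrays. Across genes, array 3 correlated with the other arrays of 6 h at 0.919 and 0.907, below the 0.952 between those arrays. The 24 h arrays correlated with each other at 0.957 to 0.971. Between the times, arrays 1 and 2 of 6 h correlated with the 24 h arrays at 0.941 to 0.955, and array 3 at 0.91 to 0.925. Across genes the times were thus about as alike as arrays within 6 h. All 12 cardiomyocyte markers could be read on every one of the 6 arrays. At 24 h 6 were higher and 6 lower (median difference -0.03), and 3 were higher when array 3 of 6 h was left out. The mean level of these markers ran from 0.70 to 1.32 over the 6 h arrays and from 0.65 to 1.36 over the 24 h arrays. No slide held both times of concentration 1, and no chain of slides with shared groups linked them. Slide and time therefore cannot be told apart, and slide entered only as a random block.

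Of 27738 genes tested in limma over all 20 arrays, 49 (0.177%) passed an adjusted p of 0.05 (Benjamini-Hochberg) between 24 h and 6 h. In 16 of them (0.0577%) RNA was higher at 24 h and in 33 (0.119%) it was lower. At an unadjusted p of 0.05 the shares were 5.11% higher and 5.14% lower. In all 49 genes the 3 arrays of one time lay beyond the 3 of the other, which was so for 7.32% of all genes upward and 6.53% downward. Quantile normalization gave 22 higher and 24 lower, and normexp background correction 11 and 47. Standard errors and p-values use the spread shared by all 20 arrays. With the 6 arrays alone 1 gene passed, a rise that was not among the 49. In 31 of the 33 falls all 3 arrays of 6 h lay above both untreated arrays, against 10.2% of all genes. In 17 the mean of 24 h lay between the untreated arrays, against 38% of all genes. Their median level against untreated was 2.03 at 6 h and -0.42 at 24 h. In 10 of the 16 rises all 3 arrays of 6 h lay below both untreated arrays, against 16.8% of all genes, and in 7 the mean of 24 h lay between them. The median level of the rises against untreated was -1.41 at 6 h and 0.47 at 24 h. These differences share the arrays of 6 h and 24 h with the comparison that chose the genes and are given as a description.

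The scan day changed how many genes were called, and how they split. With scan day as a fixed block 390 genes (1.41%) passed, 253 (0.912%) of them higher at 24 h and 137 (0.494%) lower. All 49 genes were among them. Leaving out only the single 6 h array of the second day at concentration 1 gave 42 genes, 24 of them among the 49. Over the arrays of scan day 1 alone 190 genes (0.685%) passed, 136 (0.491%) higher and 54 (0.195%) lower. Of the 49, 35 were among these. The fit of scan day 1 also left out the 6 h arrays of the lower concentrations that were scanned on the second day. All 49 kept their direction there. Of the 19 called genes with a symbol, the 5 that did not pass were Mcm6, Rsad2, Mybl1, Ptgs2 and Cyp1a1 (adjusted p from 0.0531 to 0.0706 in limma). With slide as a random block 3 genes (0.0108%) passed, 2 rises (0.00721%) and 1 fall (0.00361%). In 148 of the 253 rises called with the scan day block, array 3 of 6 h lay within or above the 24 h arrays, while in the falls this held for 20 of 137 in the opposite direction. The median difference over all genes was 0.03 over all arrays and -4e-04 on scan day 1.

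**Figure D1:**
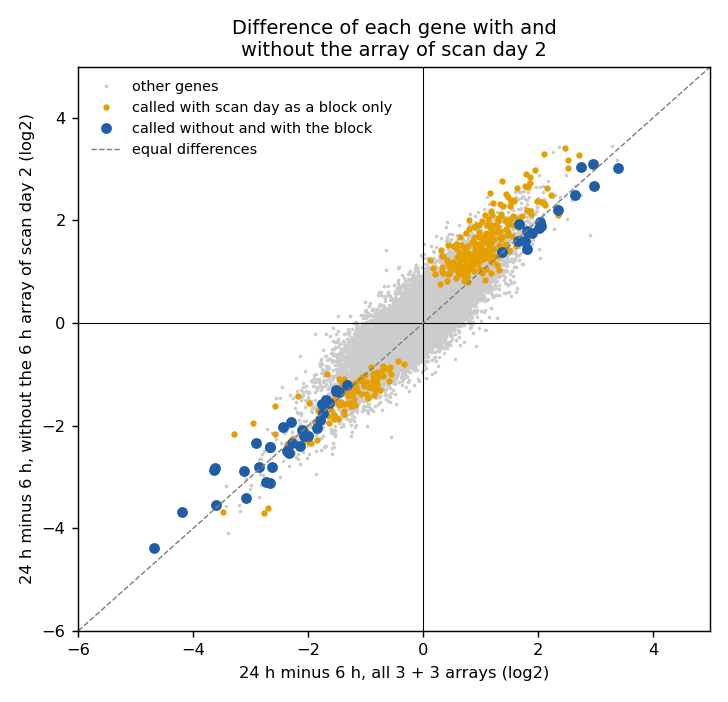
Difference between 24 h and 6 h (log2) of every tested gene over all 3 and 3 arrays (horizontal axis) and without the 6 h array of the second scan day (vertical axis), 1 point per gene. The 49 genes called without a block (blue) lie close to the dashed line of equal differences, while the further genes called with scan day as a block but not without it (orange) lie mostly above it on the rising side.

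Cyp1a1 fell from 6 h to 24 h. It encodes the cytochrome P450 that the aryl hydrocarbon receptor (Ahr) switches on after exposure to planar aromatic compounds. Its level was -1.76, -2.86 and -1.42 at 6 h and -6.73, -7.21 and -6.16 at 24 h, and the untreated arrays read -6.23 and -2.20. The times did not overlap, while the untreated arrays spanned most of the range between them. No 24 h array was well above background, so the RNA was at least 9.95-fold lower at 24 h, against the lowest signal well above background on each array. The difference was -4.68 ± 0.76 (standard error, n = 3 and 3, adjusted p = 0.0144 in limma). No other gene of xenobiotic metabolism and transport passed. Of 18 tested, 11 were higher, 7 lower, and Cyp1a1 alone passed (median difference 0.14). The receptor itself, Ahr, differed by 0.60 ± 0.30, and Por, the reductase that feeds electrons to microsomal P450 enzymes, by 0.73 ± 0.28. Other genes known to follow the receptor, picked after their values were seen, were Cyp1b1 at 0.32 ± 0.37 and Tiparp at -0.48 ± 0.34. Ugt1a6, a conjugating enzyme, differed by -1.60 ± 0.83, with overlapping arrays. Adjusted p-values of these genes lay between 0.382 and 0.849.

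Ptgs2, the target of celecoxib, fell 4.93-fold. Its level was -1.38, -2.16 and -0.68 at 6 h and -3.72, -4.17 and -3.23 at 24 h. All 3 arrays of 24 h lay below all 3 of 6 h. The untreated arrays, at -3.87 and -2.39, lay below every 6 h array, and the first of them within the range of 24 h. The difference was -2.30 ± 0.40 (adjusted p = 0.0223 in limma), and the scan day block gave -2.01 (adjusted p = 0.0153). On scan day 1 alone it did not pass (adjusted p = 0.0694), nor with slide as a random block (adjusted p = 0.182). This came from 1 of its probes, since the second was not well above background on any of the 6 arrays. The arrays of Ptgs1 overlapped between the times. It stood at 1.80, 1.79 and 1.53 at 6 h and 1.50, 1.76 and 1.63 at 24 h, a difference of -0.08 ± 0.23 (adjusted p = 0.97 in limma).

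Of 12 genes of prostanoid synthesis and receptors that were tested, 8 were higher and 4 lower at 24 h (median difference 0.24), and Ptgs2 alone passed. Ptges, the inducible prostaglandin E synthase, differed by 0.38 ± 0.30, and the prostacyclin synthase Ptgis by -0.09 ± 0.32. The receptors with the smallest p-values were all read higher at 24 h and did not pass. Ptger1, a receptor of prostaglandin E2, was well above background on no 6 h array and on all of 24 h, at least 2.4-fold higher (3.37 ± 0.96, adjusted p = 0.217 in limma). The thromboxane receptor Tbxa2r, well above background on 2 of the 6 h arrays, stood 2.03 higher (adjusted p = 0.319) and the prostacyclin receptor Ptgir 1.26 higher (adjusted p = 0.58). For both of these, taken for their small p, the arrays of the times did not overlap. Over the list this held for 4 of 12 genes upward and 1 downward. Ptger4 was not tested, because it was not well above background on every array of any group.

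Tfpi2, a secreted Kunitz inhibitor of serine proteases, fell 7.24-fold. Its level was -0.85, -1.28 and -0.94 at 6 h and -3.99, -4.34 and -3.31 at 24 h, where it lay close to the untreated arrays (-4.44 and -3.72). The difference was -2.86 ± 0.40 (adjusted p = 0.00488 in limma). It was the 1 gene of 22 tested matrix proteases and inhibitors that passed, and the list had 11 higher and 11 lower genes. Adamts9 and Adamts5, proteases of aggregating proteoglycans, were 1.17 and 1.06 higher with no overlap, and neither passed. They were taken for their small p, and over the list 2 genes upward and 3 downward did not overlap.

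Genes of cell shape, adhesion and vessels were among the other falls. Nes encodes nestin, an intermediate filament protein of immature and regenerating muscle and nerve cells. It stood at 1.74, 1.63 and 1.05 at 6 h and -0.77, -0.45 and -1.33 at 24 h, 5.02-fold lower (-2.33 ± 0.32, adjusted p = 0.00478 in limma), and both of its probes fell. Itga2, the alpha 2 chain of a collagen-binding integrin, went from 0.00, -0.36 and -0.56 to -2.41, -2.63 and -2.97 (-2.36 ± 0.41, adjusted p = 0.0202). Olr1, a scavenger receptor for oxidised low-density lipoprotein, went from 2.30, 2.82 and 2.43 to -0.03, 0.20 and 0.51 (-2.29 ± 0.34, adjusted p = 0.00745). Its spots were saturated on 2 of the 6 h arrays, where the measured level is a lower limit. In these 3 genes the times lay apart. Against the untreated mean, the 24 h level was -0.14 for Nes, -0.38 for Itga2 and 0.24 for Olr1.

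Clec14a, a lectin of endothelial cells, went from 1.86, 1.80 and 1.25 to -0.29, -0.42 and 0.07 (-1.85 ± 0.25, adjusted p = 0.00478 in limma). This holds for the brighter of 2 probes; the other read the opposite way, and their mean differed by -0.50. Of 9 endothelial markers tested, 5 were higher and 4 lower, none passed, and their mean level was -2.64 to -2.32 over the 6 h arrays and -2.55 to -2.05 over those of 24 h.

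**Figure D2:**
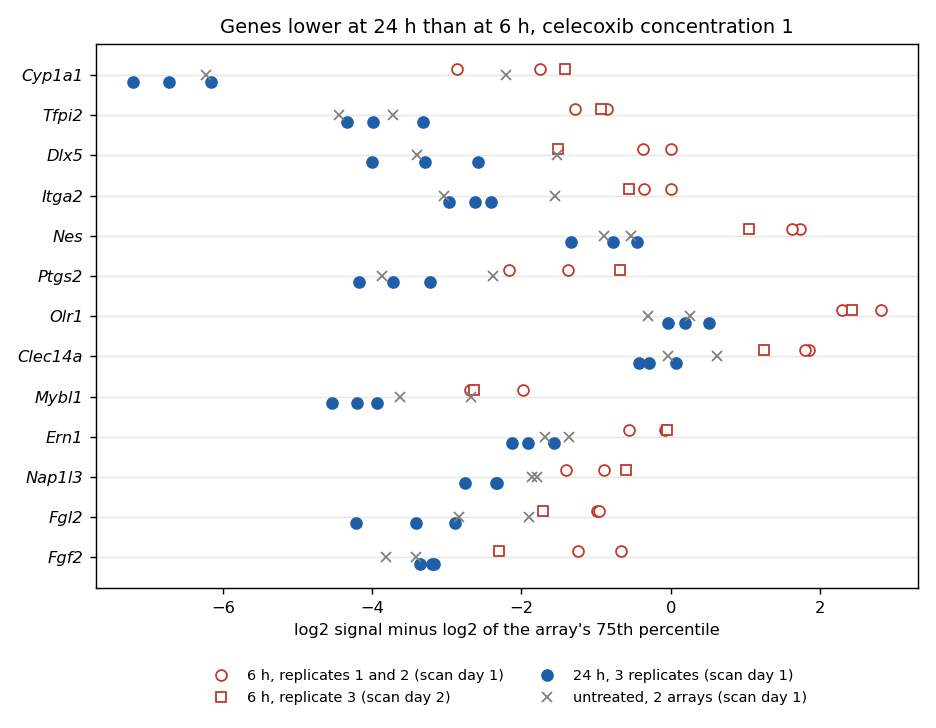
Level on each array (log2 signal relative to the 75th percentile of the array) of the genes named as falling, with 6 h in red, 24 h in blue and untreated cells as grey crosses. In every gene shown the 24 h arrays lie below the 6 h arrays, and for Tfpi2, Nes and Olr1 they lie beside the untreated arrays.

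The remaining named falls were regulators of transcription and signalling. Dlx5, a homeobox factor of bone and neural crest derivatives, went from 0.01, -0.37 and -1.51 to -3.29, -4.00 and -2.59 (-2.67 ± 0.47, adjusted p = 0.0226 in limma). Mybl1, a factor of the Myb family, went from -1.98, -2.69 and -2.63 to -4.54, -4.20 and -3.94 (-1.80 ± 0.34, adjusted p = 0.0393). Nap1l3, of the family of nucleosome assembly proteins, went from -0.89, -1.41 and -0.59 to -2.34, -2.75 and -2.32 (-1.51 ± 0.25, adjusted p = 0.0171). None of these overlapped between the times. Mybl1 and Nap1l3 also ended below both untreated arrays on all 3 arrays of 24 h.

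Ern1 encodes IRE1, the endoplasmic reticulum kinase and ribonuclease that senses unfolded proteins. It stood at -0.07, -0.55 and -0.05 at 6 h and -2.13, -1.92 and -1.56 at 24 h, 3.12-fold lower (-1.64 ± 0.31, adjusted p = 0.0381 in limma). It was the 1 gene of 22 tested in the list of endoplasmic reticulum chaperones that passed, with 8 higher, 14 lower and a median of -0.06. With scan day as a block the list median was -0.32, and on scan day 1 alone it was -0.30 with 6 higher. Edem1, which helps to clear misfolded glycoproteins, differed by -0.73 ± 0.25, but only 1 of its 3 probes had that direction. Syvn1, a ubiquitin ligase of the same clearance, differed by -0.47 ± 0.25, and the chaperone partner Dnajb11 by 0.59 ± 0.32. In these genes the arrays of the times did not overlap, and the adjusted p-values were 0.308, 0.541 and 0.558. They were taken for their small p, and over the list 2 genes upward and 3 downward did not overlap.

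Fgl2 and Fgf2 did not pass over all arrays without a block, and were named because they passed with scan day as a block. On scan day 1 alone both passed (adjusted p = 0.0379 and 0.0248 in limma). Fgl2, a fibrinogen-like protein of vessels and macrophages, went from -0.99, -0.96 and -1.71 to -3.42, -2.89 and -4.23, a blocked difference of -2.73 (adjusted p = 0.00518 in limma). Fgf2, a growth factor of fibroblasts and cardiomyocytes, went from -0.67, -1.24 and -2.29 to -3.20, -3.36 and -3.17, a blocked difference of -2.34 (adjusted p = 0.0153). In both, array 3 of 6 h was the lowest of its time and still lay above the 24 h arrays. Only 1 of the 2 probes of Fgf2 fell.

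Nppc was higher at 24 h. It encodes C-type natriuretic peptide, a relaxing peptide that acts locally on vessels and heart cells. Its level was -7.13, -5.87 and -7.44 at 6 h, where no array was well above background, and -3.80, -4.14 and -3.56 at 24 h. This is at least 2.25-fold higher against the background limit, and the measured difference was 2.98 ± 0.46 (adjusted p = 0.0094 in limma). The untreated arrays, at -3.86 and -2.78, read like those of 24 h. It was the 1 gene of 23 tested in the list of hypertrophy and natriuretic peptides that passed, with 11 higher and 12 lower. Nppa, atrial natriuretic peptide, stood at 0.90, 1.14 and 0.92 and then -0.94, 0.13 and 1.19, with wide overlap. Hand2, a transcription factor of heart development, stood at 2.82, 2.49 and 2.44 and then 1.43, 2.37 and 0.78 (-1.06 ± 0.31, adjusted p = 0.218). Hopx, a regulator of cardiomyocyte growth, was 0.72 higher (adjusted p = 0.423).

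Mcm6 encodes a subunit of the helicase that opens DNA ahead of replication. Its level was -6.68, -6.24 and -5.98 at 6 h, with no array well above background, and -3.16, -3.23 and -3.67 at 24 h. It was at least 3.14-fold higher (2.95 ± 0.49, adjusted p = 0.0156 in limma), and a single dim probe measured it. The other subunits of the helicase all read higher at 24 h, with overlapping arrays, and did not pass. Their differences were 0.33 for Mcm2, 0.39 for Mcm3, 0.43 for Mcm4, 1.81 for Mcm5 and 0.70 for Mcm7.

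The DNA replication genes leaned the same way as a list. Of 36 tested, 31 were higher and 5 lower at 24 h, against 52.8% of all genes higher. The median difference was 0.63, against 0.03 over all genes. Mcm6 passed over all arrays, and Mcm6 and Prim1 with scan day as a block. Prim1, the primase subunit that starts new strands, went from -0.92, -1.13 and -1.89 to 0.33, -0.12 and -0.16 (1.33 ± 0.30, adjusted p = 0.0921 in limma, 0.0369 with the block). Rrm2, the regulated subunit of ribonucleotide reductase, went from -1.06, -0.80 and -0.64 to 0.21, -0.31 and 0.15 (0.85 ± 0.27, adjusted p = 0.278). Pold1, the catalytic subunit of DNA polymerase delta, went from -2.62, -2.98 and -3.00 to -1.60, -1.10 and -2.46 (1.15 ± 0.41, adjusted p = 0.341). In all of these, taken for their small p, the 24 h arrays lay above those of 6 h. Over the list this held for 8 of 36 genes, and for 1 in the opposite direction. On scan day 1 alone 30 of the 36 were higher, with a median of 0.47, and with scan day as a block the median was 0.45. At 1/25 30 of the 36 were higher (median 0.69) and at 1/5 22 (median 0.33). The mean level of the list ran from -2.29 to -2.14 at 6 h and from -1.83 to -1.49 at 24 h.

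Genes of mitosis read the same way, with 32 of 38 tested higher, 6 lower, a median of 0.47 and none passing. Kif2c, a kinesin that corrects chromosome attachment, stood at -2.18, -2.55 and -3.36 and then -1.08, -1.93 and -1.63, without overlap. This was so for 8 of the 38 upward and 0 downward. With overlapping arrays, Plk1, the mitotic kinase, was 0.75 ± 0.26 and Pttg1, securin, 1.03 ± 0.36. The condensin subunit Ncaph was 0.88 ± 0.28. The smallest adjusted p of these genes was 0.253.

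Many replication genes are known targets of E2F factors, so the promoters of the DNA replication list were searched for the E2F motif. The windows of 250 bases before the gene start came from RefSeq (GRCr8). They were searched on both strands for TTTCGCGC and TTTGGCGC, whose matches can overlap each other. Of the 36 tested genes 30 had a window, and 6 of the 30 (20%) held a match, against 184 of 27457 promoters (0.67%). The 6 were Mcm2, Mcm5, Mcm6, Mcm7, Pola1 and Tyms. Pola1, DNA polymerase alpha, differed by -0.32 and Tyms, thymidylate synthase, by 0.51, so genes with a match ran from -0.32 to 2.95. Of 32 mitosis genes with a window 1 held a match, Cdk1 (0.47). None of 10 named rises and none of 8 named falls with a window held one; Mcm6, dim at 6 h, is not among those 10. The E-box CACGTG and the aryl hydrocarbon receptor core TTGCGTG, searched likewise, were each in 2 of the 8 named falls (25%), against 5.79% and 0.998% of all promoters. Cyp1a1, on no 24 h array well above background, is not among those 8. Each of these shares rests on 2 of 8 genes picked by their differences, with several motifs searched, and was not tested. A serum response motif was searched too, and no named fall or rise with a window held it. A match describes the letters and says nothing of binding. The share of the replication list would be the same whatever the arrays read, so it has no bearing on the difference between the times. In Mcm2 (chr4:122918095-122918344, minus strand), Mcm5 (chr19:13488563-13488812, plus strand) and Mcm6 (chr13:42404353-42404602, minus strand) matches on both strands overlap in one block, in capitals below.
Mcm2 promoter: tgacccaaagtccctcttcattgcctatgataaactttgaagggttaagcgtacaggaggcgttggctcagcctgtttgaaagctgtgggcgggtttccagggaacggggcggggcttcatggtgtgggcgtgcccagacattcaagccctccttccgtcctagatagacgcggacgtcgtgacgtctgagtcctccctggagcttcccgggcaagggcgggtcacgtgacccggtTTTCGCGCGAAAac
Mcm5 promoter: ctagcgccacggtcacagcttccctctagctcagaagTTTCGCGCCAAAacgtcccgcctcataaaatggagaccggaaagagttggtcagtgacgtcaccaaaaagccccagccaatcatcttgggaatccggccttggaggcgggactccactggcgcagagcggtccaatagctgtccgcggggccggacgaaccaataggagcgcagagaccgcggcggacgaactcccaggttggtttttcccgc
Mcm6 promoter: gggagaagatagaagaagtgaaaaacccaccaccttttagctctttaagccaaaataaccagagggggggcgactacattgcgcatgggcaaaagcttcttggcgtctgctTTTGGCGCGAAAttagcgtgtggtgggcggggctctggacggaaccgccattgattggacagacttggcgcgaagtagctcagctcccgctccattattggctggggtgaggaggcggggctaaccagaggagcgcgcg

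Rsad2, or viperin, an antiviral enzyme made after interferon, was higher at 24 h. Its level was -5.09, -4.11 and -4.66 at 6 h, well above background on 2 arrays, and -2.94, -2.95 and -2.52 at 24 h, 3.52-fold higher (1.82 ± 0.32, adjusted p = 0.0209 in limma). The 24 h arrays also lay above the untreated arrays (-4.19 and -4.61). Of 24 interferon response genes tested, 19 were higher and 5 lower, with a median of 0.40, and Rsad2 alone passed. Gbp2, an interferon-induced GTPase, went from -2.91, -2.55 and -2.49 to -0.90, -1.72 and -1.64 (1.23 ± 0.31, adjusted p = 0.144, and 0.0292 with scan day as a block). Isg15, a ubiquitin-like protein, went from -0.12, -0.93 and -1.05 to 0.70, 0.62 and 0.36 (1.26 ± 0.38, adjusted p = 0.228). Psmb9, a subunit of the immunoproteasome, differed by 1.77 ± 0.72 with overlapping arrays.

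Macrophages are one source of such transcripts in heart cultures, and their markers were examined beside the list. Of 16 macrophage and leukocyte markers tested, 12 were higher and 4 lower, with a median of 0.40 and none passing. Their mean level was -1.58 to -1.45 over the 6 h arrays and -1.24 to -1.01 over those of 24 h. The marker Cd83 differed by 0.89 ± 0.29, the scavenger receptor Cd163 by 0.98 ± 0.49 and cathepsin S, Ctss, by -0.67 ± 0.35. Cd74, the invariant chain of class II molecules, was well above background on no 6 h array and at least 1.62-fold higher at 24 h (adjusted p = 0.478 in limma). The part of these cells in the interferon genes was not tested.

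The promoter of Gbp2 is shown for the interferon-stimulated element. Windows were searched on both strands for GAAA followed by C or G and then TGAAA. A match was found in 5 of 19 interferon genes with a window (26.3%), against 131 of all promoters (0.477%). That share would be the same whatever the arrays read, so it has no bearing on the difference between the times. The 5 were Oas1a, Oasl2, Ifi44, Gbp2 and Bst2, with differences from 0.09 for Bst2 to 1.23 for Gbp2. None of them passed over all arrays without a block (adjusted p from 0.144 to 0.98 in limma), and Rsad2 is not among them. The window of Gbp2 lies at chr2:234005477-234005726 on the plus strand (GRCr8), and the capitals mark the match, which reads on the opposite strand.
Gbp2 promoter: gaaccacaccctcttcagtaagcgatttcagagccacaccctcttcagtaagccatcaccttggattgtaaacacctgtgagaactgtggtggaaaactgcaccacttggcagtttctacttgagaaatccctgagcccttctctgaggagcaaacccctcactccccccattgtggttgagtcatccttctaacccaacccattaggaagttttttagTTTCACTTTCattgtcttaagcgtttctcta

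The other rises with a symbol had mixed roles. Gjb2, connexin 26 of gap junctions, went from -2.58, -2.71 and -3.70 to -1.57, -0.85 and -1.16 (1.80 ± 0.33, adjusted p = 0.0302 in limma). Rerg, a small GTPase related to Ras, went from -3.32, -3.38 and -2.58 to -1.26, -1.59 and -1.42 (1.67 ± 0.32, adjusted p = 0.0381). Chchd6, part of the complex that shapes mitochondrial cristae, went from -0.96, -0.85 and -1.04 to 0.31, 0.87 and 0.93 (1.65 ± 0.28, adjusted p = 0.0171). In Gjb2 and Chchd6 the 24 h arrays lay above both untreated arrays, and in Rerg the 6 h arrays lay below both.

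Angpt1 and Grik2 were dim at 6 h, so the naming rule did not take them and they were chosen after their values were seen. Angpt1, a ligand of the endothelial receptor Tie2, went from -5.41, -4.27 and -5.31, well above background on 2 arrays, to -3.11, -3.14 and -2.71 (2.01 ± 0.35, adjusted p = 0.0192 in limma). Grik2, a subunit of kainate receptors, went from -6.92, -6.38 and -5.79, on no array well above background, to -3.37, -4.08 and -3.40, at least 2.61-fold higher (2.75 ± 0.43, adjusted p = 0.0116).

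A further 9 rises were named because they passed with scan day as a block. They were Frrs1, Tead2, C1qtnf7, Tnfrsf26, Mgat5b, Prap1, Cyp2w1, Bpifb2 and H2bc18. In 6 of the 9 the 6 h array of the second scan day read at or above the lowest 24 h array. Tead2, a DNA-binding partner of the Hippo pathway, shows this pattern, at -3.68, -3.81 and -1.64 at 6 h and -1.67, -1.51 and -2.07 at 24 h. Its difference was 1.30 ± 0.62 (adjusted p = 0.491 in limma) over all arrays and 2.12 (adjusted p = 0.00131) with the block. Cyp2w1, an orphan cytochrome P450, stood at -3.82, -3.42 and -1.93 and then -1.67, -1.92 and -2.02 (blocked difference 1.74, adjusted p = 0.0043). Prap1, a secreted acidic protein best known from gut and uterus, stood at -1.60, -1.25 and 0.76 and then 0.93, 0.28 and 0.24 (blocked difference 1.76). The part of the scan day in these rises was not tested beyond these values.

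In the 3 that remain all arrays of 24 h lay above all arrays of 6 h. Frrs1, a ferric reductase, went from -4.07, -4.02 and -3.13 to -1.54, -1.27 and -2.85 (blocked difference 2.36, adjusted p = 0.0202 in limma). C1qtnf7, a secreted protein with a C1q domain, went from -3.37, -2.21 and -2.08 to -0.61, -1.03 and -0.94 (blocked difference 1.98, adjusted p = 0.00666). H2bc18, a histone H2B, went from -2.12, -3.16 and -1.25 to -0.82, -1.16 and -1.20 (blocked difference 1.73, adjusted p = 0.00713).

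**Figure D3:**
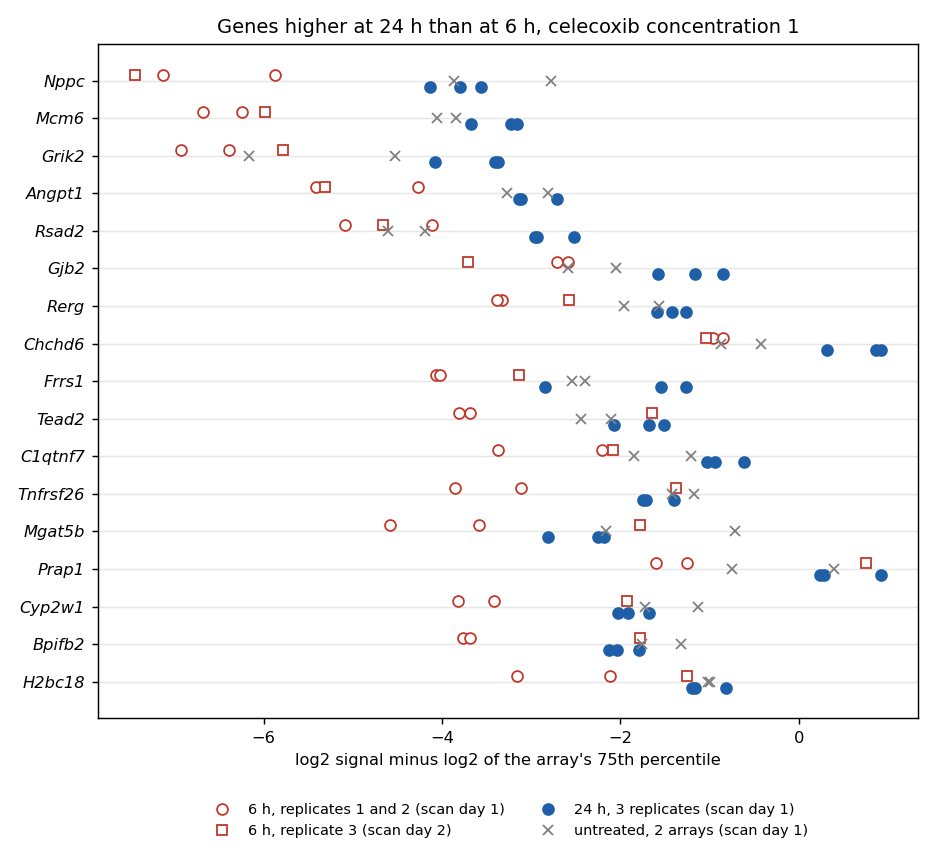
Level on each array (log2 signal relative to the 75th percentile of the array) of the genes named as rising, with 6 h in red, 24 h in blue and untreated cells as grey crosses. From Nppc to Chchd6 all 6 h arrays lie below the 24 h arrays, while in 6 of the 9 genes below them the 6 h array of the second scan day (square) reads with the 24 h arrays.

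Of the 49 called genes, 30 had no gene symbol in the array's annotation or RefSeq. The 3 genes that also passed with slide as a random block were among these. The sequences of their probes are therefore given, with the positions that the array files list (rn3). BE109651 rose from -0.42, -0.61 and -0.98 to 1.93, 2.12 and 1.86 (2.64 ± 0.31, adjusted p = 0.00112 in limma). Its probe lies at chr9:78387159-78387218 on the minus strand, 2034 bases from the nearest probe of a named gene, which belongs to Kcne4, a potassium channel subunit on the opposite strand. The Kcne4 probe was too dim to be tested. A_44_P614608 rose from -3.47, -4.11 and -4.23 to -1.76, -1.54 and -1.46 (2.35 ± 0.26, adjusted p = 0.00112). Its probe lies at chr1:149134175-149134233 on the plus strand, and the nearest named probe, of Dlg2, lies 218537 bases away. AI058357 fell from -0.29, 0.14 and -1.04 to -3.15, -3.76 and -3.53 (-3.08 ± 0.35, adjusted p = 0.00112). Its probe lies at chr10:78466744-78466803 on the minus strand, 735 bases from the probe of Tmem100 on the other strand. Tmem100, a membrane protein of vessels, differed by -0.74 (adjusted p = 0.382).
BE109651: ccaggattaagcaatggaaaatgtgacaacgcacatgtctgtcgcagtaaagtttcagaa
A_44_P614608: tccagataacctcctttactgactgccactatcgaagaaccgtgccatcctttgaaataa
AI058357: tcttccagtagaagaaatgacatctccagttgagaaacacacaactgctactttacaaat

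How far single arrays carried these calls was read by leaving out each array of concentration 1 in turn. Without array 2 of 24 h 6 genes passed, without its array 1 15 genes, and without array 3 of 24 h 70. Without array 1 of 6 h 20 passed, without array 2 58 and without array 3 42. Only 6 of the 49 passed in all of these fits, Nes among the genes with a symbol and 5 without one. Of the 19 called genes with a symbol, 1 passed without array 2 of 24 h, 4 without array 1 of 24 h and 4 without array 1 of 6 h. Adjusted p-values in those fits ran from 0.0115 to 0.222, from 0.0328 to 0.225 and from 0.0315 to 0.161. They kept 10 without array 3 of 6 h, 12 without array 3 of 24 h and 15 without array 2 of 6 h. Tfpi2 and Clec14a lost their call only without array 2 of 24 h, with an adjusted p of 0.0517 each. Mybl1 passed in none of the 6 fits. Every one of the 19 kept its direction in all of them. Arrays of the other concentrations enter through the shared spread: leaving them out in turn gave 38 to 89 genes, with 89 without 1/25 6 h array 1 and 88 without its array 3. All 49 genes passed in both of those fits.

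The gene lists without calls give the setting of these changes. Of 35 lists, 28 had no called gene. Inflammatory cytokines and NF-kappa-B targets leaned lower at 24 h, with 17 of 24 tested lower, 7 higher and a median of -0.19. Ccl2, a chemokine for monocytes, went from 0.03, -0.17 and -0.44 to -1.49, -1.91 and -1.09 (-1.30 ± 0.36, adjusted p = 0.194 in limma, 0.0153 with scan day as a block). Il33, an alarmin of stromal cells, went from 1.63, 0.72 and 1.96 to -0.18, -0.51 and 0.24 (-1.59 ± 0.39, adjusted p = 0.129). Tnfrsf11b, the decoy receptor osteoprotegerin, went from 1.53, 1.73 and 2.51 to 0.01, 0.26 and 0.95 (-1.52 ± 0.35, adjusted p = 0.102), and Ccl20, another chemokine, differed by -2.31 ± 0.71, well above background on 2 and 1 arrays. In all 4 genes, which were taken for the smallest p of the list, the times did not overlap. Over the list this held for 6 of 24 genes downward and 0 upward, against 6.53% and 7.32% of all genes.

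Immediate early genes, which answer growth signals within the hour, were higher in 8 and lower in 16 of 24 tested (median -0.07), and none passed. Fosl1, an AP-1 subunit, was -1.20 ± 0.41, and the phosphatases Dusp6 and Dusp5, which switch off MAP kinases, were -0.85 ± 0.29 and -0.63 ± 0.29. Fos itself read the other way, from -3.16, -3.52 and -3.83 to -2.18, -2.05 and -2.82 (1.15 ± 0.42, adjusted p = 0.345 in limma).

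Lists of the contractile and metabolic machinery had medians near 0, and some turned sign with the scan day. Of 32 sarcomere genes tested 17 were higher and 15 lower (median 0.08), of 37 genes of calcium handling and ion channels 23 and 14 (median 0.10), and of 52 of the respiratory chain 28 and 24 (median 0.08). With scan day as a block these medians were -0.16, 0.05 and -0.08. Lysosome and autophagy genes were higher in 27 of 34 (median 0.30), but in 21 on scan day 1 alone. Genes of other lists that passed with scan day as a block, and neither without it nor on scan day 1 alone, included Cry1, a clock repressor (-0.94), Col6a3, a collagen chain (-1.20), Cflar, an inhibitor of caspase 8 (-0.95), Pdgfrb, the receptor of pericytes and fibroblasts (1.16), Ahsp, the stabiliser of alpha globin (-1.20), and Sox10, a Schwann cell factor (1.66). Sox10 was named after its value was seen. Of 12 fibroblast markers tested 6 were higher and 6 lower, and of 10 smooth muscle and pericyte markers 6 and 4. None of these markers passed over all arrays.

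Gldn and Hs3st1 were followed because they lay far from untreated cells in earlier results of these data. Gldn, gliomedin, stood at 0.50, 0.13 and 0.41 at 6 h and -0.21, -0.76 and -0.92 at 24 h, with untreated arrays at -4.01 and -3.77 (-0.98 ± 0.27, adjusted p = 0.199 in limma). Hs3st1, a heparan sulfate sulfotransferase, stood at -4.14, -2.78 and -3.27 and -3.57, -3.75 and -3.83, with untreated arrays at 0.61 and -1.37 (-0.32 ± 0.44, adjusted p = 0.891). At both times Gldn lay above and Hs3st1 below the untreated arrays.

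**Figure D4:**
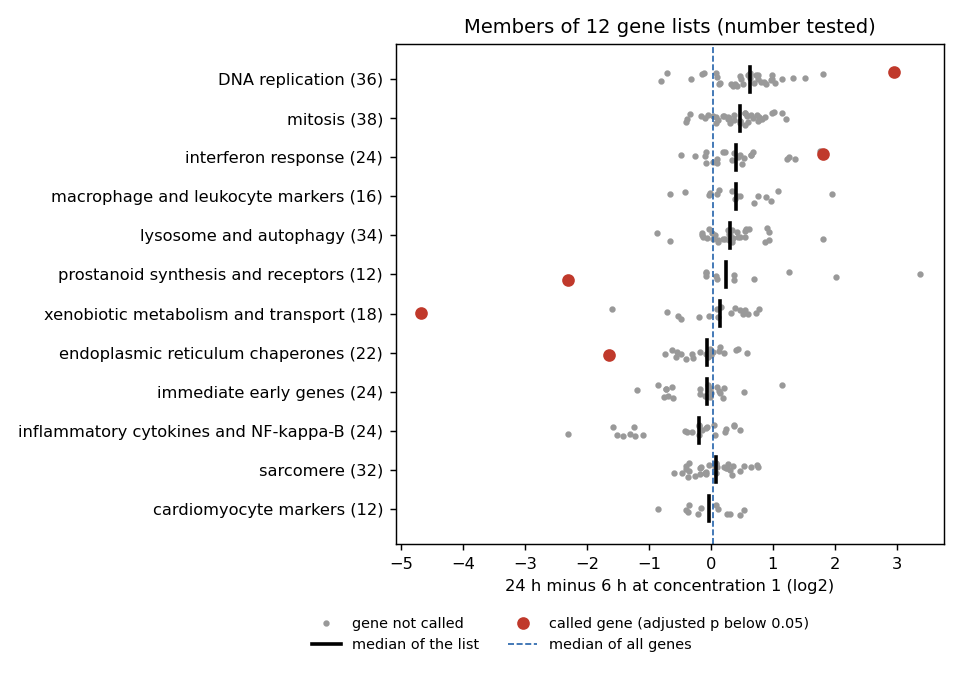
Difference between 24 h and 6 h at concentration 1 (log2) of each tested member of 12 gene lists, with list medians as black bars, called genes in red and the median of all genes as a dashed line. The medians of DNA replication (0.63) and mitosis (0.47) lie to the right of the dashed line, while sarcomere genes and cardiomyocyte markers lie about it.

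The same times were compared at the lower concentrations, which use other arrays but partly the same slides. Array 3 of 6 h at concentration 1 shared a slide with the 6 h arrays of 1/5. Arrays 2 and 3 of 24 h shared one with 24 h arrays 1 and 2 of 1/5. Array 1 of 24 h shared one with 6 h array 1 of 1/25. The part of the slide in this comparison was not tested. Between 24 h and 6 h 679 genes (2.45%) passed at 1/25, 1.08% higher and 1.37% lower. At 1/5 1358 (4.9%) passed, 1.77% higher and 3.13% lower. At 1/5 the 6 h arrays all came from the second scan day and the 24 h arrays from the first, so scan day and time cannot be told apart there. At 1/25 only 1 of 3 arrays of 6 h was scanned on the first day. All 16 rises and all 33 falls of concentration 1 had the same sign at 1/25 and at 1/5, against 68.4% and 62.7% of all genes. With the arrays of the first scan day alone the 15 rises that had a value there and all 33 falls kept it at 1/25, against 69.9% of all genes. All genes include many with small differences, so these shares are no matched baseline. Of the 16 rises 12 also passed at 1/25 and 12 at 1/5. Of the 33 falls 32 passed at 1/25 and 21 at 1/5. The median difference of the rises was 2.02 at 1, 1.79 at 1/25 and 1.70 at 1/5, and that of the falls -2.33, -2.14 and -1.89. With genes not above background at one time set to their bound, the medians at 1 were 1.73 and -2.10.

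The named genes varied in how alike the 3 differences were. Cyp1a1 differed by -4.68 at 1, -3.63 at 1/5 and -5.68 at 1/25. Ptgs2 differed by -2.30, -2.85 and -3.83 in the same order, and Nppc by 2.98, 3.43 and 3.73. Mcm6 had 2.95 at 1 and 0.46 and 1.07 at the others. Cyp1a1, Nppc and Mcm6 were above background on no array of one time at concentration 1, so the sizes of their differences cannot be compared. Dlx5 had -2.67 against -0.91 and -2.65.

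Whether the difference between the times itself depended on the concentration was tested as an interaction in limma. No gene passed for 1 against 1/25, where 982 of 27735 genes had an unadjusted p below 0.05, and none for 1 against 1/5, where 1814 of 27734 did. No gene passed with scan day as a block either, with 1231 and 834 at that unadjusted p. For Ptgs2 the difference at 1 minus that at 1/25 was 1.52 (95% interval 0.32 to 2.73), and for Tfpi2 0.55 (95% interval -0.63 to 1.74). The intervals are those of single genes, not adjusted over genes. Without array 3 of 6 h at concentration 1, 2 genes passed against 1/25, Sorl1 and Frk, and 10 against 1/5.

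**Figure D5:**
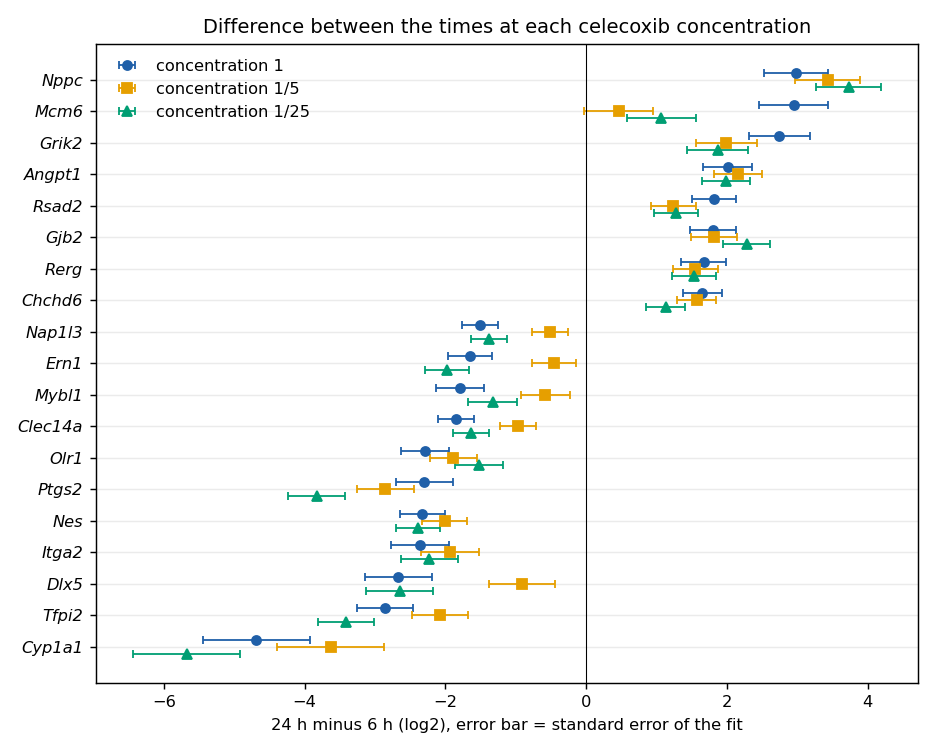
Difference between 24 h and 6 h (log2, error bars are the standard error of the fit) of the 19 called genes with a symbol at each of the 3 concentrations. All 19 have the same sign at each concentration; Cyp1a1, Nppc, Mcm6 and Grik2 were not above background on any array of one time at concentration 1, so their points there are not exact sizes.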

How the data were processed

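RNA was hybridised to single-colour Agilent arrays. Per the file headers, the deposited intensity of each spot was extracted with Feature Extraction 9.5.3.1. The authors' deposited series values are a linear ratio. Of the values in them, 99.6% of 820240 lay within 0.01 (log2) of signal over the array median and over the untreated mean. Its scale and direction follow from this match. Column medians ran from 0.826 to 1.27.

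Here the processed signal was divided by its 75th percentile on each array and taken to log2, outlier spots were left out and spots of a probe averaged. A filter kept the 31776 of 41012 probes that every array of some group read well above background. The brightest stood for each of 27749 genes. Names came from the RefSeq accession (10735 probes), a symbol, synonym or gene number (10517), another accession (42) or the file (19718).

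All 20 arrays were fitted with 7 group means in limma 3.58.1 (R 4.3.3, data.table version 1.17.8, statmod 1.5.0, jsonlite 2.0.0; 13 residual degrees of freedom, 17.1 moderated), two-sided, with Benjamini-Hochberg adjustment over all genes at 0.05. A bound for genes not above background uses the lowest well measured signal of each array. The fit was tested on simulated data. Members, lists, tests and alternatives were chosen with earlier results of these data known. Genes with a symbol were named if called, well above background on all 6 arrays and without overlap, up to 12 a direction; then, to fill the 12, if called with scan day as a block and beyond 6 h arrays 1 and 2. Up to 4 genes a list with the smallest p, and Ptgs1, Ptgs2, Ptges, Ptgis, Ptger4, Gldn and Hs3st1, were named too. Alternatives covered blocks, background, scaling, filters, probes and left-out arrays. Some genes that the naming rule takes are not reported here.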

Additional observations from a re-analysis of the deposited data

Results flagged for a closer look

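Hand2 and Rrm2 read in opposite directions at different concentrations, with the arrays of the times apart at each. Hand2 was lower at 24 h at concentration 1 (-1.06 ± 0.31, standard error) and higher at 1/25 (0.33) and 1/5 (0.27). In limma the interaction was -1.39 against 1/25 (adjusted p = 1) and -1.33 against 1/5 (adjusted p = 0.638). Rrm2 was higher at 24 h at concentration 1 (0.85 ± 0.27) and lower at 1/5 (-0.58), where scan day and time coincide; the interaction was 1.42 (adjusted p = 0.638 in limma). No interaction passed for either gene.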

How the results depend on the processing

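The count of 49 genes became 390 with scan day as a block, 190 on scan day 1 alone and 3 with slide as a random block (correlation 0.345). With the 6 arrays alone 1 gene passed, a rise that was not among the 49, so none of the 49 calls held there. Without single arrays of concentration 1 the count was 6 to 70. Leaving out single arrays of the other concentrations, chosen after seeing the data, gave 38 to 89, so single celecoxib arrays span 6 to 89; the remaining settings gave 38 to 58. The cause of these changes in count was not tested. Replicate numbers did not pair the samples (correlations of deviations -0.09, 0.05 and -0.01). The replicate block gave 50 genes, and 295 together with the scan day block.

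Interactions gave 0 genes throughout, except 2 against 1/25 and 10 against 1/5 without array 3 of 6 h at concentration 1; against 1/5 no value could be had on scan day 1, which holds no 6 h array of 1/5. Of 99 genes named or examined, 95 kept their direction under every alternative that gave them a value, which was all 19 for 77 genes and 18 for the rest. Ptgis turned to 0.12 with the scan day block, 0.18 with both blocks, 0.06 without 6 h array 1 and 0.093 without 24 h array 3; without single arrays it ran from -0.31 to 0.093. With the mean of the probes Mylk read -0.50, Cyp1b1 -0.20 and Pola1 0.47. Low signal limits Cyp1a1, Nppc, Mcm6 and Grik2 to bounds, and 3 arrays a time limit small changes.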
